A study of Mus musculus with 4 samples.

Results

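Immature and mature B cells are the B-lineage cells that have finished building their antigen receptor. In single-cell RNA sequencing of the mouse femoral epiphysis they were taken as the cells that held Cd79a together with genes of receptor-bearing B cells and few genes of the earlier pro-B and pre-B stages, and 479 of the 49055 cells that passed the filters (0.976%) met that rule. The femoral epiphysis is the end of the growing thigh bone. It is cartilage at first, and vessels, bone and marrow grow into it with age. Wild-type mice were studied on days 7, 8, 10 and 12 after birth. Each day was 1 library, so no day has a replicate and no difference between days could be tested. The labels name no transgene, deletion or treatment, and how many animals a library came from is not stated in the labels. The series title concerns cartilage cells as a possible origin of blood stem cells. All values below are unnormalized counts of unique molecular identifiers (UMIs), the tags that count single RNA molecules, or shares and CPM made from them. CPM is the count of a gene for each 1000000 UMIs of the summed cells.

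B cells are made in the marrow from pro-B and pre-B cells, which rearrange the heavy chain gene first and test it with a surrogate light chain (Igll1, Vpreb1). A cell that then makes a working light chain carries IgM on its surface and is called immature. As it matures it adds IgD from the same transcript, gains MHC class II, the molecules that show peptides to T cells, and takes up receptors for survival signals and for homing to follicles of spleen and lymph node. Cd79a and Cd79b are the signalling chains of the receptor from the pro-B stage on.

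The rule asked for 500 or more genes, 1000 or more UMIs and no more than 15% of UMIs from mitochondrial genes. It asked for at least 1 UMI of Cd79a and for UMIs of at least 2 of the 5 genes Ms4a1 (CD20), Ighd (the IgD heavy chain), H2-Aa (a class II chain), Fcmr (the IgM Fc receptor) and Cd22 (a brake on receptor signals). UMIs of fewer than 3 of Igll1, Vpreb1, Vpreb3, Dntt, Rag1 and Arpp21 were allowed, globin was kept under 20% and 5 cartilage genes under 3% of UMIs. The members were chosen by these UMI counts, so the levels of those genes in them are a description. Pro-B and pre-B cells were taken with the same filters, Cd79a and at least 3 of the 6 early genes. On day 12, 141 of 343 members (41.1%) held 2 of the 5 B-cell genes and 202 (58.9%) held 3 or more, against 76 (57.6%) and 56 (42.4%) of 132 members on day 10. Ms4a1 was found in 81.6% of members on day 12 and 59.8% on day 10, H2-Aa in 71.4% and 63.6%, Ighd in 58.6% and 64.4%, Fcmr in 42.9% and 39.4%, and Cd22 in 40.8% and 41.7%. Just outside the rule, 259 cells on day 12 and 238 on day 10 held Cd79a and 1 of the 5 genes. A further 43 and 32 cells held 2 or more of the 5 but exactly 3 early genes, and 59 and 45 met all but the Cd79a term. The globin limit removed 7 and 2 cells on days 12 and 10, and the cartilage limit 17 and 0. The depth of a cell bears on the rule, because a gene is found more often in a cell with more UMIs.

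Summed over all barcodes, the UMIs numbered 44218720, 46534365, 132282322 and 169323978 on days 7, 8, 10 and 12. The day-12 members were shallow, with a median of 3183 UMIs against 7400.5 on day 10, although all cells kept had similar medians of 6563.5 UMIs on day 12 and 7706.5 on day 10. A few members were very deep: 44 of 343 on day 12 and 13 of 132 on day 10 had more than 3 times the median of their library, and they carried 47.4% and 35.5% of the summed UMIs. The comparison of days was therefore also made without these cells. Some barcodes recurred between libraries, 72 to 282 per pair of libraries, and none was a B cell in both. The symbols Igkc (the kappa constant region), Irf8, Rag1, Mzb1, Itgam and Myd88 had no UMI in any library although marrow cells are known to make several of them, so they are only listed at 0 and nothing is drawn from them.

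The label was checked on genes that the rule did not use. Shares of cells with a UMI are given after every cell was thinned to 2000 UMIs, which left 288 of 343 members on day 12 and 128 of 132 on day 10. Cartilage cells, which should lack B-cell genes, were thinned to the same depth as a background of free RNA. Before thinning the median of the cells left was 3587 UMIs in B cells and 11020 in cartilage cells on day 12, against 7563.5 and 19481 on day 10. The deeper cartilage cells lose more UMIs in thinning, so their thinned shares can understate the background in B cells. Unthinned, Ighm was found in 11.2% and 17.7% of cartilage cells on days 12 and 10. Ighm (the IgM heavy chain) was found in 95.5% of B cells on day 12 and 94.5% on day 10, against 3.30% and 4.10% of cartilage cells. Cd79b was found in 80.2% and 72.7% of B cells, against 1.01% and 1.26% of cartilage cells. Pax5, the factor that holds a cell in the B lineage, was found in 79.5% and 77.3% of B cells, against 1.22% and 0.946% of cartilage cells. All 3 genes stood far above the background on both days, and on this check the members carry the markers of B-lineage cells.

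RNA of other cell types was present in the members and differed between the days. At least 2 UMIs of the 10 cartilage genes were found in 99.4% of members on day 12 and 89.4% on day 10, and these genes summed to 4820 CPM on day 12 and 649.5 CPM on day 10. At least 2 UMIs of the 10 granulocyte genes were found in 34.7% and 82.6% of members, with summed levels of 785 and 4037 CPM. Granulocyte genes summed to 3044 and 8409 CPM in the cells of both libraries outside the B lineage. T and NK cell genes were near 0, at 27.7 and 24.7 CPM, and 1.75% and 3.03% of members held 2 or more UMIs of them. Monocyte and macrophage genes summed to 691 and 505 CPM, endothelial genes to 341 and 498 CPM and dendritic cell genes to 82.5 and 142 CPM. Erythroid genes summed to 3312 and 7797 CPM and reticular stromal genes to 55576 and 13160 CPM. The reticular stromal sum was mostly collagen. Col1a1 had 65007 and 9984 UMIs and Col1a2 41640 and 7267 in members of days 12 and 10, against 54 and 25 of Cxcl12 and 26 and 47 of Kitl. The sums of other lineages came in part from single deep members: 1 day-12 member of 33537 UMIs held 67 UMIs of the endothelial gene Cdh5 and 1 UMI of Ighm, and 1 day-10 member of 16822 UMIs held 1593 UMIs of the granulocyte gene S100a8. The first of these held 2 UMIs of Cd79a and 0 of Ms4a1, and the second 6 of Cd79a, 7 of Ms4a1 and 23 of Ighm. Whether such barcodes were doublets or cells of another type with free B-cell RNA was not tested, and no doublet caller was run. Of the endothelial list, Pecam1 had 393 and 279 UMIs in members of days 12 and 10. Unthinned, it was found in 56.0% and 64.4% of B cells and 54.1% and 58.7% of pro-B and pre-B cells, against 7.71% and 13.7% of cartilage cells. The endothelial sum thus includes a gene common in B-lineage cells. The part that RNA of other cell types has in the comparisons of days was not tested.

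B cells were almost absent on days 7 and 8 and were numerous enough to describe on days 10 and 12. They numbered 1 of 11309 cells on day 7 (0.00884%, 95% exact interval 0.000224 to 0.0493%), 3 of 11464 on day 8 (0.0262%, 0.00540 to 0.0765%), 132 of 10028 on day 10 (1.32%, 1.10 to 1.56%) and 343 of 16254 on day 12 (2.11%, 1.89 to 2.34%). Pro-B and pre-B cells numbered 3, 23, 641 and 464 on the same days, which was 6.39% of cells on day 10 (5.92 to 6.89%) and 2.85% on day 12 (2.60 to 3.12%). The B-cell share was thus 1.60 times as high on day 12 as on day 10, while the share of the earlier stages was 0.447 times as high. Of the cells in both groups, B cells were 42.5% on day 12 (39.1 to 46.0%) and 17.1% on day 10 (14.5 to 19.9%). The intervals cover counting error only and not the spread between mice, which 1 library per day cannot show. The day-12 share was also above the day-10 share under each other rule, depth and denominator tried, except when members with 2 or more cartilage UMIs were left out, which removed nearly all members and gave 0.0123% on day 12 and 0.140% on day 10. A further 1030 cells on day 12 and 1091 on day 10 held Cd79a but met neither rule.

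**Figure D1:**
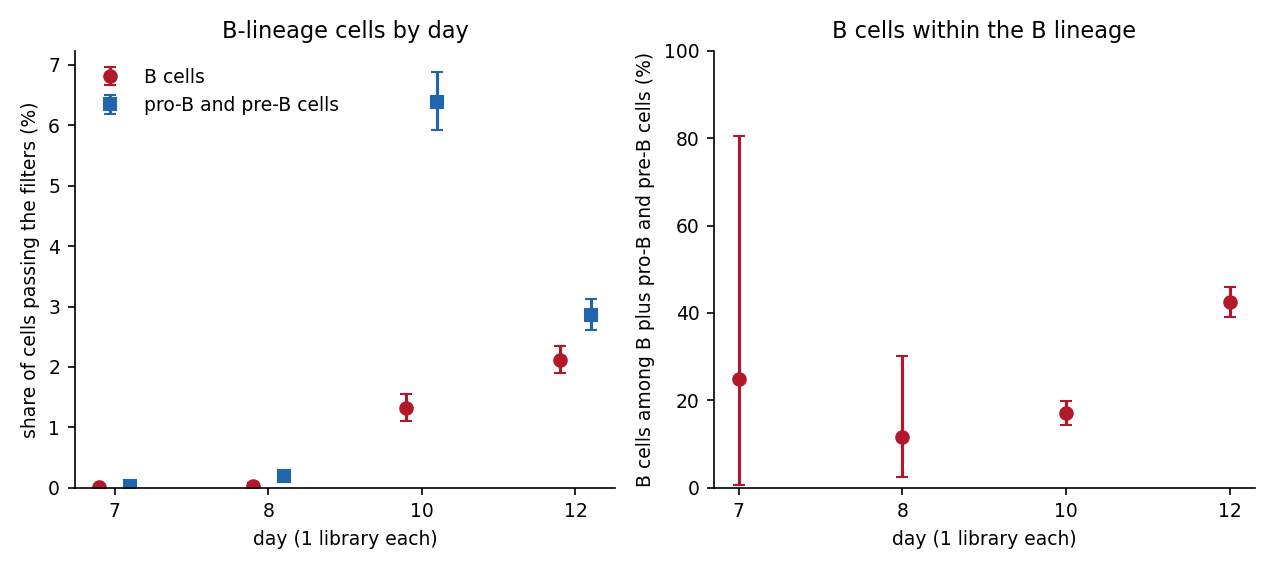
Left, share of kept cells (percent, 95% exact intervals) that were B cells or pro-B and pre-B cells on each postnatal day. Right, share of B cells among both groups. B cells reached 1.32% on day 10 and 2.11% on day 12, and their part of the B lineage was 17.1% and 42.5% on these days.

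The 4 cells of days 7 and 8 held transcripts of the receptor and of Cd74. The day-7 cell held 1815 UMIs, with 2 of Cd79b, 12 of Cd74, 6 of H2-Ab1, 5 of Ighm and 4 of Ighd. The day-8 cells held 2605, 4272 and 1158 UMIs, with 21, 11 and 5 UMIs of Cd74, 5, 18 and 4 of Ighm and 2, 1 and 3 of Cd79b. Ighm, Cd79b and Cd74 transcripts were thus found together in each of them, and 3 of the 4 held no UMI of Vpreb3. H2-Aa and H2-Ab1 had 0 UMIs in 2 of the 3 day-8 cells. The background of free RNA was not measured for these days. With 4 cells, levels on these days were not compared.

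MHC class II genes were well above their levels in the earlier stages. Class II chains (H2-Aa, H2-Ab1, H2-Eb1) pair with the invariant chain Cd74 inside the cell, H2-DM loads the peptide, H2-DO (H2-Oa and H2-Ob) holds H2-DM back, and Ciita is the master switch of their transcription. The promoters of class II genes are known to share short boxes read by one protein complex, among them an inverted CCAAT box, and the promoter letters of the members are shown here because several class II genes were higher in B cells than in the earlier stages and on day 12 than on day 10, as given next. In RefSeq promoters of build GRCm38.p6 (250 bases before the start to 50 after it), the letters CTGATTGG or, on the other strand, CCAATCAG stood in 4 of the 11 genes of the class II list that had a promoter (36.4%) and in 1346 of all 32851 promoters (4.10%). The 4 promoters follow, 5′ to 3′ on the strand of the gene, with the box in capitals.
H2-Aa, chr17:34287774-34288073, minus strand: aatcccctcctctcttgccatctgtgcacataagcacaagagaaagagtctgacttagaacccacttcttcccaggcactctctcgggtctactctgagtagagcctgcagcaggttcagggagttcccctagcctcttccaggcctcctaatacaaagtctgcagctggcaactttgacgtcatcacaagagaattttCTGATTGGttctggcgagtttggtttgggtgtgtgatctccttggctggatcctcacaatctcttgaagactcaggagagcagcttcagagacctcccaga
H2-Eb1, chr17:34305617-34305916, plus strand: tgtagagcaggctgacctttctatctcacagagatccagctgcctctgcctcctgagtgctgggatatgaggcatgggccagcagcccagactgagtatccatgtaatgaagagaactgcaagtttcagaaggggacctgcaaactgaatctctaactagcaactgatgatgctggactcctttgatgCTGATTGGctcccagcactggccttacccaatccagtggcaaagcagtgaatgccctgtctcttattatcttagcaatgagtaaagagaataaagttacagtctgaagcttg
H2-Eb2, chr17:34325425-34325724, plus strand: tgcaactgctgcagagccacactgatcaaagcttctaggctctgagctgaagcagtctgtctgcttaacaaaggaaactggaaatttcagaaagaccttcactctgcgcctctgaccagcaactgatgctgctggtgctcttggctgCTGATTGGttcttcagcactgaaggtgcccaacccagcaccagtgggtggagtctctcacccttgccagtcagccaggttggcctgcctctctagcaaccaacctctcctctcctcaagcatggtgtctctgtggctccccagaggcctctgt
H2-Oa, chr17:34092129-34092428, plus strand: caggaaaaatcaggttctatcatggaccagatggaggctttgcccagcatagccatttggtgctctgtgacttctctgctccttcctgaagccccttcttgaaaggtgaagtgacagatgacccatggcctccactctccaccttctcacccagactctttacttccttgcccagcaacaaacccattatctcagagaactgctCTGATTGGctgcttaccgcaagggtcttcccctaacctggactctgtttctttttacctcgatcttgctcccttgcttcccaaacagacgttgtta
The box ended 44, 55, 96 and 39 bases before the start of H2-Aa, H2-Eb1, H2-Eb2 and H2-Oa. The octamer ATTTGCAT (ATGCAAAT on the other strand), a motif known from immunoglobulin promoters and not overlapping that box in letters, stood in 570 of 32851 promoters (1.74%), in 0 of the 11 class II list genes and in 0 of the 3 matched genes Cd79a, Fcmr and Cd22, none of which held CTGATTGG either. Cd74, H2-Ab1 and Ciita were not among the 11 genes with a promoter. H2-DMb2, which was past 2-fold higher than in the earlier stages on both days, did not hold these exact letters. Only they were searched for, so a box spelled otherwise was not counted. The windows of H2-DMb2 and H2-DMb1 hold GTGATTGG and that of H2-Ob holds TTGATTGG, which differ from CTGATTGG only in the first letter. H2-Oa held CTGATTGG and did not reach 2-fold on both days. A match describes letters in this window and shows no binding.

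Against pro-B and pre-B cells of the same library, 9 of 15 class II genes were higher past 2-fold on both days and none was lower, where 3.99% of the 11722 genes with enough counts were higher and 2.04% lower. The rule used genes of these same cells, H2-Aa among them, so these counts describe the cells and test nothing. The median log2 ratio of the list was 2.31 on day 12 and 1.13 on day 10, against 0.05 and 0.02 over all genes. Cd74 had 1756 and 841 CPM in B cells of days 12 and 10, against 52.3 and 89.3 CPM in pro-B and pre-B cells. Its log2 ratio was 5.07 on day 12 and 3.23 on day 10, the largest in the list on day 12. H2-Ab1, the beta chain of I-A, had 613 and 251 CPM in B cells of days 12 and 10, against 77.5 and 125 CPM in pro-B and pre-B cells. H2-Eb1, the beta chain of I-E, had 531 and 219 CPM in B cells of days 12 and 10, against 27.6 and 55.1 CPM in pro-B and pre-B cells. For each of these 3 genes the ratio was larger on day 12 than on day 10, with B cells higher and the earlier stages lower on day 12. Without the very deep B cells, H2-Ab1 stood at 3.12 and 0.90 and was under 2-fold on day 10. Without cells holding 3 or more UMIs of division genes, which left 145 and 20 B cells, 4 of the 6 class II genes with enough counts were higher. H2-DMb2 stood out the other way, with log2 ratios of 3.71 on day 12 and 4.58 on day 10. Ciita had 42.7 and 21.9 CPM in B cells of days 12 and 10, against 2.17 and 3.90 CPM in pro-B and pre-B cells. Ctss, the protease that trims the invariant chain, was higher by log2 1.16 and 1.13 on days 12 and 10. The inhibitors did not reach 2-fold on both days, with log2 ratios of 1.88 and 0.80 for H2-Oa and 1.84 and 0.58 for H2-Ob. Nor did the general promoter factors Rfx5 (0.71 and 0.47), Rfxap (0.21 and 0.45) and Rfxank (0.49 and -0.10), which are made in most cells.

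**Figure D2:**
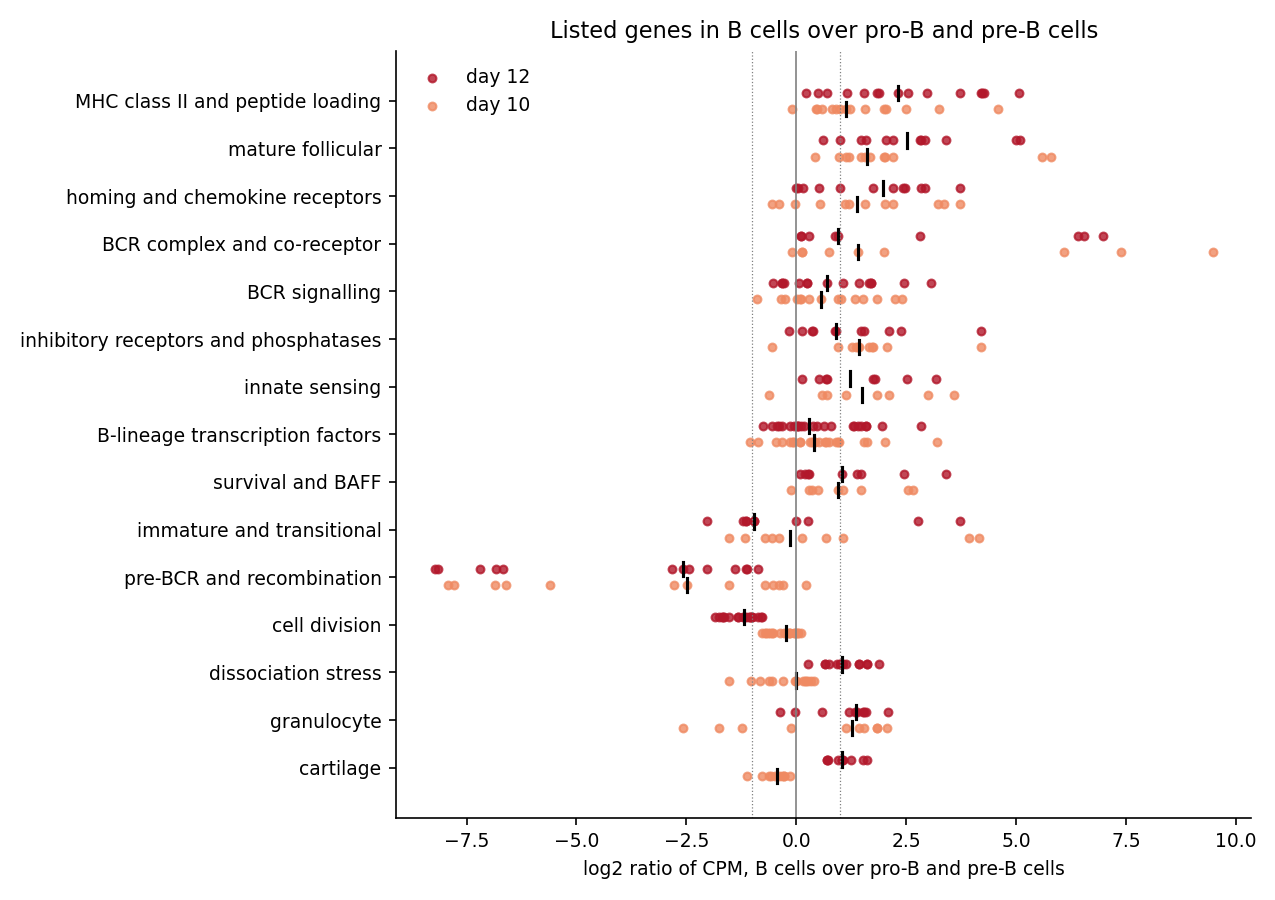
Log2 ratio of B cells to pro-B and pre-B cells for each gene of 15 lists (dots) on day 12 and day 10, with list medians (black bars) and 2-fold limits (dotted lines). Class II, follicular and homing genes lie mostly above the upper limit and genes of the pre-B receptor and recombination mostly below the lower one.

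Counted by cells, class II was found in more B cells on day 12 than on day 10 although the day-12 members were shallower. Members could enter the rule through H2-Aa, a class II gene, so these shares describe the members. At 2000 UMIs per cell, Cd74 was found in 77.1% (71.8 to 81.8%) of B cells on day 12 and 50.8% (41.8 to 59.7%) on day 10. Pro-B and pre-B cells had it in 7.38% and 6.25%, and the background in cartilage cells was 5.14% and 1.89%. Unthinned, Cd74 was found in 86.3% of members on day 12 and 70.5% on day 10, against 18.4% and 13.4% of cartilage cells. For the chains the thinned shares were 49.3% and 27.3% for H2-Ab1 and 44.4% and 26.6% for H2-Eb1, with cartilage cells at 8.57% and 6.94% for H2-Ab1 and 3.46% and 1.89% for H2-Eb1. The intervals of day 12 and day 10 did not overlap for Cd74. On day 10 Ighm was thus found in nearly all members at this depth and Cd74 in about every other one.

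**Figure D3:**
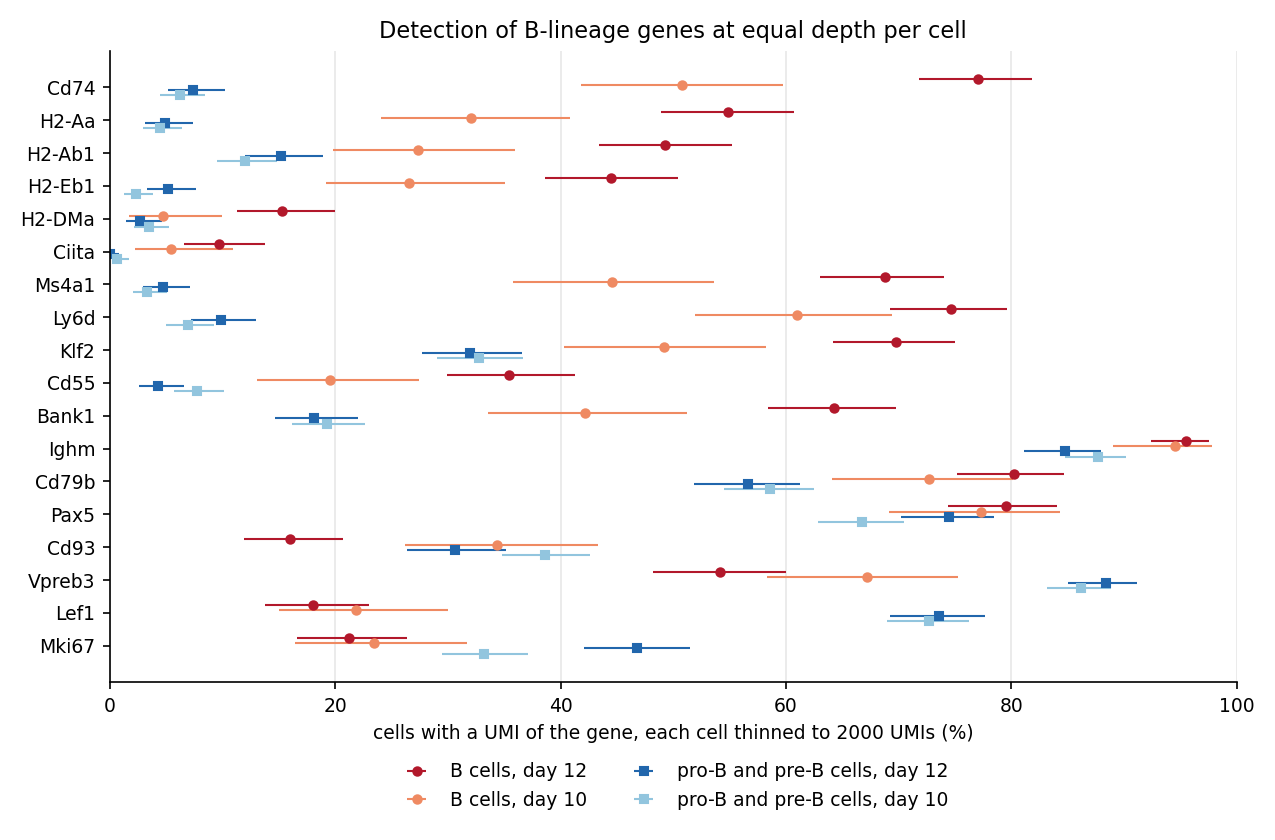
Share of cells (percent, each cell thinned to 2000 UMIs) with a UMI of 18 genes in B cells of day 12 and day 10 and in pro-B and pre-B cells of day 12 and day 10. Cd74 was found in 77.1% and 50.8% of B cells and in 7.38% and 6.25% of the earlier cells, whereas Pax5 was common to both.

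Among parts of the antigen receptor, the signalling chains Cd79a and Cd79b were within 2-fold of the earlier stages, and the lambda light chains and Ighd were not. Ighm had 2427 and 3693 CPM in B cells of days 12 and 10, against 1263 and 1395 CPM in pro-B and pre-B cells, short of 2-fold on day 12 (log2 0.94 and 1.40 on days 12 and 10). Cd79b stood at log2 0.88 and 0.73, Cd79a, which the rule used for both groups, at 0.30 and 0.12, and Cd81 at 0.11 and -0.10. The lambda constant genes Iglc1, Iglc2 and Iglc3 and Ighd were past 2-fold on both days, 4 of the 9 genes tested, with none lower and medians of 0.94 and 1.40. Ighd, a gene of the rule, had 190.0 and 174 CPM in B cells of days 12 and 10, against 26.8 and 43.5 CPM in pro-B and pre-B cells. Cr2, the complement receptor of the mature co-receptor, had 13.1 and 4.94 CPM in B cells of days 12 and 10, against 0.394 and 0.923 CPM in pro-B and pre-B cells and too few UMIs to be counted on day 10.

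Genes that carry the receptor signal inward were in part higher than in the earlier stages, with 6 of 15 higher past 2-fold on both days, none lower, and medians of 0.70 and 0.57. The adaptor Bank1 led the list with 736 and 587 CPM in B cells of days 12 and 10, against 87.6 and 112 CPM in pro-B and pre-B cells. The kinases followed at smaller size, with log2 ratios of 1.65 and 1.33 for Lyn, 1.43 and 1.02 for Syk and 1.70 and 1.84 for Blk on days 12 and 10, and the exchange factor Rasgrp3 at 1.69 and 1.51. Btk (0.25 and 0.09), the linker Blnk (-0.32 and -0.35) and Plcg2 (0.24 and 0.29), which the pre-B receptor also uses, were within 2-fold.

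Brakes on the receptor showed the same mixture, with 5 of 11 genes past 2-fold on both days, none lower, and medians of 0.91 and 1.42. Btla, an inhibitory receptor, had 241 and 237 CPM in B cells of days 12 and 10, against 13.0 and 12.9 CPM in pro-B and pre-B cells. Siglecg, a sialic-acid receptor that dampens calcium signals, stood at log2 1.54 and 1.42, the paired receptor Pirb at 2.39 and 2.07 and the phosphatase Ptpn22 at 1.47 and 1.64. Cd22 was used by the rule and stood at 2.11 and 1.72. Fcgr2b, the inhibitory Fc receptor, reached 2-fold on day 10 but not on day 12 (0.87 and 1.26 on days 12 and 10), and Cd72 did likewise (0.13 and 1.35).

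Most transcription factors of the lineage were at like levels in both stages, with 4 of 24 genes past 2-fold on both days, none lower, and medians of 0.28 and 0.41. Ikzf3 (Aiolos), which restrains the pre-B programme, had 562 and 502 CPM in B cells of days 12 and 10, against 78.9 and 54.3 CPM in pro-B and pre-B cells. It was found in 65.6% and 57.0% of B cells thinned to 2000 UMIs, against 11.6% and 9.38% of the earlier cells and 0.826% and 0.631% of cartilage cells. The others past 2-fold were Pou2f2 (Oct-2, log2 1.96 and 2.03 on days 12 and 10), Spib (1.39 and 1.60) and Zfp318 (1.47 and 1.53), a protein needed for IgD transcripts. Pax5 (0.03 and 0.08), Foxo1 (0.10 and -0.07), Bach2 (0.46 and 0.42) and Ebf1 (-0.56 and -0.87) were within 2-fold. Klf2, a factor of quiescence and homing, passed 2-fold on day 12 only (1.59 and 0.96).

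Genes of mature follicular B cells were higher in 9 of the 12 genes tested, with none lower and medians of 2.51 and 1.62. Ms4a1, Fcmr and Ighd of this list were in the rule. Ms4a1 had 957 and 835 CPM in B cells of days 12 and 10, against 29.8 and 17.2 CPM in pro-B and pre-B cells. Of those outside it, Cd55, which shields cells from complement, had 236 and 131 CPM in B cells of days 12 and 10, against 22.1 and 41.0 CPM in pro-B and pre-B cells. Gpr183, the oxysterol receptor that places cells in the follicle, had 68.4 and 21.9 CPM in B cells of days 12 and 10, against 8.87 and 4.82 CPM in pro-B and pre-B cells. Ltb, a ligand that builds follicles, had log2 ratios of 2.04 on day 12 and 1.13 on day 10, and Tnfrsf13c, the BAFF receptor, of 1.48 on day 12 and 1.48 on day 10. Fcer2a (CD23), a marker of follicular cells, had 27.7 and 4.94 CPM in B cells of days 12 and 10, against 0.197 and 0.308 CPM in pro-B and pre-B cells, with too few UMIs on day 10 to be counted. Cd37 stood at 0.60 and 0.43.

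Homing receptors were higher in 7 of 12 genes tested, with none lower and medians of 1.96 and 1.37. Ccr7, which guides cells to lymph nodes, had 46.3 and 21.2 CPM in B cells of days 12 and 10, against 6.31 and 5.33 CPM in pro-B and pre-B cells. Cxcr5, the receptor for the follicle chemokine, had 47.3 and 30.3 CPM in B cells of days 12 and 10, against 10.3 and 10.5 CPM in pro-B and pre-B cells. Cnr2, a cannabinoid receptor of B cells, stood at log2 3.72 and 3.37, the gut homing genes Itgb7 at 2.48 and 3.71 and Ccr9 at 2.41 and 3.21, and S1pr1, the receptor by which cells leave the marrow for blood, at 1.73 and 1.11. Ccr9 rested on 22 and 26 UMIs in B cells of days 12 and 10. Unthinned, it was found in 2.04% and 3.79% of B cells, against 2.16% and 1.87% of the earlier cells. Cxcr4, which holds cells in the marrow, was within 2-fold of the earlier stages on both days (0.03 and 0.53). Receptors for leaving and for follicles were thus past 2-fold in the B cells while the marrow retention receptor was not.

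Survival genes were higher in 3 of 9 tested (Tnfrsf13c, Cd40 and Pim2), with none lower and medians of 1.03 and 0.94. Cd40, the receptor for T cell help, had 28.7 and 15.5 CPM in B cells of days 12 and 10, against 2.56 and 2.67 CPM in pro-B and pre-B cells. Bcl2 reached 2-fold on day 12 and not on day 10 (1.39 and 0.94). Innate sensors were higher in 4 of 8 tested, with none lower and medians of 1.22 and 1.48: Ly86 and Cd180, which together form a receptor complex of B cells, stood at log2 3.18 and 3.58 and 1.78 and 2.11 on days 12 and 10, Tlr1 at 2.51 and 2.99 and Tlr7, which senses RNA, at 1.74 and 1.84. Of the marginal zone and B-1 list, 2 of 7 tested were higher (Dtx1, a Notch target, and Bhlhe41, a factor of B-1 cells) and none lower. Bhlhe41 had 32.2 and 81.1 CPM in B cells of days 12 and 10, against 3.94 and 3.18 CPM in pro-B and pre-B cells. The interferon list had 1 of 9 higher (Ifi27l2a) and none lower.

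The earlier programme was low in the members. Of the 13 tested genes of the pre-B receptor and recombination list, 8 were lower past 2-fold on both days and none was higher, with medians of -2.59 and -2.48. The rule used Igll1, Vpreb1, Vpreb3, Dntt, Rag1 and Arpp21 of this list, so the members that the rule did not use are given here. Vpreb2, a surrogate light chain gene that the rule did not name, had 0 UMIs in B cells of both days, against 149 and 154 CPM in pro-B and pre-B cells, so it was at least 99.0-fold lower on day 12 and at least 72.9-fold lower on day 10 with a limit of 3 UMIs per library. Lef1, a factor of early B cells, had 111 and 160.1 CPM in B cells of days 12 and 10, against 794 and 899 CPM in pro-B and pre-B cells. Rag2, a recombinase gene still used for light chain editing, had 14.1 and 33.9 CPM in B cells of days 12 and 10, against 59.0 and 99.7 CPM in pro-B and pre-B cells, and Erg stood at log2 -2.45 and -2.78. Without the very deep B cells the ratios of Rag2 were -1.86 and -0.90, under 2-fold on day 10. Il7r, the receptor for the growth signal of early B cells, was within 2-fold on both days (-0.87 and 0.23). Of the immature and transitional list, 2 of 10 tested were higher (Ly6d and Ms4a4c) and 1 lower (Rag2), with medians of -0.97 and -0.14. Ly6d had 803 and 679 CPM in B cells of days 12 and 10, against 60.7 and 44.5 CPM in pro-B and pre-B cells, while Cd93, the marker of newly formed B cells, stood at log2 -1.15 and -0.56 and Cd24a at -0.97 and -0.40.

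Dividing cells were fewer among the members than among the earlier stages. At 2000 UMIs per cell, Mki67 or Top2a, both made in dividing cells, was found in 28.1% of B cells on day 12 (23.0 to 33.7%) and 35.9% on day 10 (27.7 to 44.9%), against 62.2% and 49.2% of pro-B and pre-B cells. None of 19 division genes was past 2-fold lower on both days, with medians of -1.18 on day 12 and -0.24 on day 10, so the gap was mainly a matter of day 12. Stmn1, a microtubule regulator, had 386 and 494 CPM in B cells of days 12 and 10, against 1121 and 809 CPM in pro-B and pre-B cells. Members with a UMI of either gene were deeper before thinning, with medians of 5337 UMIs on day 12 and 8971.5 on day 10, than those without, with 2804 and 5353.5.

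Lists of other cell types were counted in the same way. Granulocyte genes were higher in the B cells in 6 of 10 (medians 1.35 and 1.28), dendritic cell genes in 4 of 5, monocyte and macrophage genes in 3 of 10 and endothelial genes in 1 of 8, with none lower. S100a8 had 226 and 1651 CPM in B cells of days 12 and 10, against 98.6 and 611 CPM in pro-B and pre-B cells, and 68.0% of its day-10 UMIs in B cells came from 1 member. Without the very deep members, 2 of 4 dendritic cell genes and 1 monocyte and macrophage gene passed 2-fold. Cartilage (10 tested), erythroid (9), stress (15) and T and NK cell (2) lists had none past 2-fold in the same direction on both days, the reticular stromal list had 1 of 7 lower (Cxcl12), the oncofetal list 1 higher (Arid3a) and 1 lower (Hmga2) of 7, and the plasma cell list 1 higher (Prdm1) and 1 lower (Ighg2b) of 4. Without the very deep members Prdm1, Hmga2 and the endothelial gene Cldn5 were no longer past 2-fold on both days. Stress genes had medians of 1.03 on day 12 and -0.02 on day 10.

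Outside the lists, the genes with the largest ratio to pro-B and pre-B cells on both days included surface and signalling genes as well as unnamed transcripts. Agbl1, a carboxypeptidase gene, had 392 and 409.7 CPM in B cells of days 12 and 10, against 7.30 and 13.4 CPM in pro-B and pre-B cells. Cd2, an adhesion molecule of lymphocytes, had 88.0 and 93.1 CPM in B cells of days 12 and 10, against 2.96 and 3.18 CPM in pro-B and pre-B cells. P2ry10, a lysophospholipid receptor of lymphocytes, had 35.7 and 28.9 CPM in B cells of days 12 and 10, against 1.97 and 2.56 CPM in pro-B and pre-B cells, and the sialyltransferase St8sia6 had 48.3 and 57.1 CPM in B cells of days 12 and 10, against 3.75 and 1.23 CPM in pro-B and pre-B cells. H2-Q6, a class I gene with close copies whose reads may be split, had 11.6 and 15.5 CPM in B cells of days 12 and 10, against 0.789 and 0.923 CPM in pro-B and pre-B cells. The others were Gm10552, Ralyl, 2010309G21Rik, Gm43388, Gm42870, Hepacam2, Gm15987, C130026I21Rik, Upb1 and A530030E21Rik, each with a log2 ratio of at least 3.47 on both days. At the other end, Bfsp2 had 14.6 and 17.6 CPM in B cells of days 12 and 10, against 206 and 218 CPM in pro-B and pre-B cells, and the neurturin receptor gene Gfra2 had 5.03 and 5.64 CPM in B cells of days 12 and 10, against 103 and 80.1 CPM in pro-B and pre-B cells. Pcp4l1 had 1.01 and 3.53 CPM in B cells of days 12 and 10, against 33.5 and 49.9 CPM in pro-B and pre-B cells. Rgs8, Ttll9 and Speer2 had 0 UMIs in the B cells of both days, which allows up to 1.51 and 2.12 CPM on days 12 and 10, and Rgs8 was at least 9.02-fold and 5.14-fold lower. The remaining genes at this end, Mmrn1, Gm30948, Drc7, Crhbp, 2310075C17Rik, Robo3, Tnfsf10, Cracdl and Myl10, had at most 5 UMIs in the B cells of either day.

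Against all cells outside the B lineage, Klhl14, which is known for B-1 cells, had 118 and 98.7 CPM in B cells of days 12 and 10, against 1.35 and 1.16 CPM in those cells. Tmem163, a zinc transporter gene, had 611 and 558 CPM, against 10.3 and 10.6 CPM. Fcrla, an Fc receptor-like protein inside B cells, had 346 and 532 CPM, against 7.15 and 12.9 CPM, and was also well represented in the earlier stages (106 and 138 CPM). Il5ra, the receptor for interleukin 5, had 18.6 and 9.87 CPM, against 0.225 and 0.244 CPM. Cacna1i, Ifi214, Gm34215, Gm50386, 4930426D05Rik and 1810046K07Rik, with Agbl1, Gm42870, 2010309G21Rik, A530030E21Rik and Gm43388 from above, completed the 15 genes with the largest ratio.

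A finished light chain is what sets an immature B cell apart from a pre-B cell, and the rule used no light chain gene. Lambda constant transcripts (Iglc1, Iglc2 and Iglc3 together) had at least 1 UMI in 253 of 343 members on day 12 (73.8%, 68.8 to 78.3%) and 75 of 132 on day 10 (56.8%, 47.9 to 65.4%). In pro-B and pre-B cells the shares were 2.16% and 4.99%, and in all cells outside the B lineage 2.14% and 1.98%, so the members stood far above background even though the earlier cells were deeper. At least 10 lambda UMIs were found in 69 members on day 12 (20.1%, 16.0 to 24.8%) and 37 on day 10 (28.0%, 20.6 to 36.5%), against 1 and 3 pro-B and pre-B cells. The middle was filled on day 12, where 114 members (33.2%) held 1 to 4 UMIs, against 22 (16.7%) on day 10. These counts were not thinned, and the median depth of members was 3183 UMIs on day 12 and 7400.5 on day 10. At a cut of 5 lambda UMIs the shares were 40.5% and 40.2%. Kappa could not be measured, since Igkc was listed at 0 in all libraries. Kappa is the common light chain of mice, so no ratio of kappa to lambda is given. A UMI of a lambda constant gene does not by itself show a finished light chain. Lambda variable segments had 10 UMIs on day 12 and 30 on day 10. How many members with lambda UMIs had a finished lambda chain was not tested.

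Cells with 10 or more lambda UMIs were led most often by Iglc1, in 38 of 69 on day 12 and 19 of 37 on day 10. Iglc2 led in 24 and 4 cells, and Iglc3 in 7 and 14. In 51 of 69 and 32 of 37 of these cells 2 or 3 of the genes each held at least 10% of the lambda UMIs. The lambda constant genes are close copies, and reads from one may be counted to another, so their split within a cell is uncertain. The highest cell held 57 lambda UMIs on day 12 and 239 on day 10, and 13 day-10 members with 40 or more UMIs carried 68.4% of the lambda UMIs of that day. Variable segments gave few UMIs: 74 UMIs of kappa segments on day 12 and 105 on day 10, 10 and 30 of lambda segments, and 8 and 10 of heavy segments. Igkv1-110 (13 and 18 UMIs), Igkv1-117 (10 and 14) and Igkv19-93 (12 and 7) led the kappa segments. Kappa segments summed to 37.2 CPM (95% interval 29.2 to 46.7) in B cells of day 12 and 74.0 CPM (60.6 to 89.6) in those of day 10, against 9.47 and 12.4 CPM in pro-B and pre-B cells and 0.346 and 0.695 CPM in cartilage cells.

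**Figure D4:**
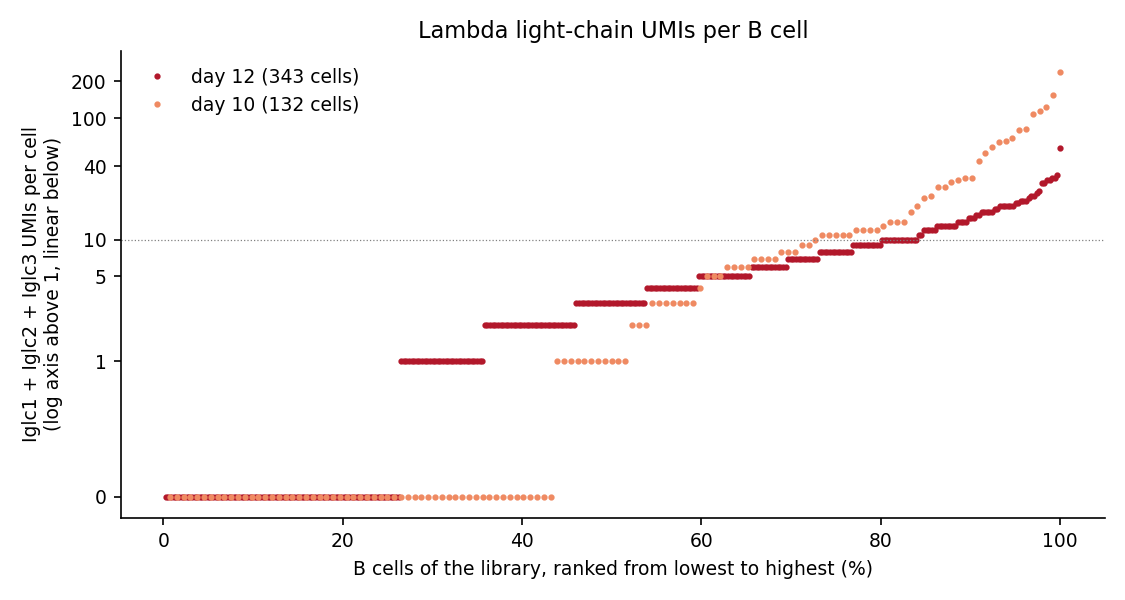
UMIs of Iglc1, Iglc2 and Iglc3 together per B cell, with the cells of day 12 and day 10 each ranked from lowest to highest (the vertical axis is logarithmic above 1 UMI and linear below, dotted line at 10 UMIs). The highest day-12 cell has 57 UMIs, and the day-10 curve ends at 239.

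Between days 12 and 10, 2135 of 10562 genes (20.2%) were higher past 1.5-fold on day 12 and 1547 (14.6%) lower, with a median log2 ratio of 0.03. Each day is 1 library, so age cannot be told apart from the library. Class II genes were higher in 8 of 15, with none lower and a median of 0.59. The rule used H2-Aa of this list, so the count describes the members and tests nothing. Without the very deep members, 10 of the 14 class II genes tested were higher, none lower, with a median of 1.21, where 17.7% of the 8942 genes tested were higher and 13.5% lower with a median of 0.07. Cd74 had 1756 CPM on day 12, against 841 CPM on day 10, a log2 ratio of 1.06, and 1.71 without the deep members. H2-Ab1 had 613 CPM on day 12, against 251 CPM on day 10. H2-Eb1 had 531 CPM on day 12, against 219 CPM on day 10. Their log2 ratios were 1.29 and 1.28, and 1.53 and 1.91 without the deep members. H2-DMa stood at 1.10 and H2-DMb1 at 1.45, while H2-Ob (0.18) and Ctss (0.22) were within 1.5-fold. Among the lists of B-cell genes, class II had the most members past 1.5-fold higher, and its median was larger without the deep cells than with them. The count of class II genes higher on day 12 was 6 to 11 over the other settings run, and it was 8 without members with 2 or more myeloid UMIs. No class II gene was lower on day 12 under these settings, except 1 gene without members with endothelial UMIs.

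Follicular genes were higher on day 12 in 6 of 14 and lower in 1, with a median of 0.52, and without the deep members 9 of 14 were higher and none lower, with a median of 1.02. The rule used Ms4a1, Fcmr and Ighd of this list. Fcer2a had 27.7 CPM on day 12, against 4.94 CPM on day 10, from 55 and 7 UMIs. Gpr183 had 68.4 CPM on day 12, against 21.9 CPM on day 10, and Cd55 had 236 CPM on day 12, against 131 CPM on day 10. Ccr7 had 46.3 CPM on day 12, against 21.2 CPM on day 10. Homing genes were higher in 6 of 13 and lower in 3, and in 8 and 1 without the deep members. Bcl2 had 90.5 CPM on day 12, against 57.1 CPM on day 10.

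Some genes of the newly formed stage and of earlier stages were lower on day 12. Of the immature and transitional list 4 of 9 were lower on day 12 and none higher, with a median of -0.54, and of the pre-B receptor and recombination list 5 of 10 were lower and none higher, with a median of -0.59. Without the deep members, 3 were lower and 2 higher of 9 in the immature list (median -0.38), and 4 lower and none higher of 9 in the other (median -0.55). The rule limited genes of both lists in every member, Vpreb3 among those lower, while Rag2, Il7r, Kit, Myb, Cd93 and Spn, also lower, were not in the rule. Cd93 had 89.5 CPM on day 12, against 196 CPM on day 10. Il7r had 105 CPM on day 12, against 291 CPM on day 10. Rag2 had 14.1 CPM on day 12, against 33.9 CPM on day 10, from 28 and 48 UMIs. Their log2 ratios were -1.13, -1.46 and -1.25, and -0.91, -1.56 and -1.72 without the deep members. Counted by cells at 2000 UMIs, Cd93 was found in 16.0% (11.9 to 20.7%) of members on day 12 and 34.4% (26.2 to 43.3%) on day 10, and Il7r in 14.6% (10.7 to 19.2%) and 28.9% (21.2 to 37.6%). Cartilage cells had Cd93 in 1.74% and 1.26% and Il7r in 0.704% and 1.26%. Division genes were lower on day 12 in 14 of 19, with none higher and a median of -0.73, and in 10 without the deep members. Rrm2, which makes DNA building blocks, had 113 CPM on day 12, against 259 CPM on day 10, and Mki67 had 245 CPM on day 12, against 415 CPM on day 10.

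The other lists of B-cell genes are given beside all genes, of which 20.2% were higher and 14.6% lower, and 17.7% and 13.5% without the deep members. Of the receptor complex, 1 of 10 genes was higher on day 12 and 2 were lower, with a median of 0.03, and without the deep members 2 were higher and none lower. Cd79b had 665 CPM on day 12, against 697 CPM on day 10. Ighm had 2427 CPM on day 12, against 3693 CPM on day 10, a log2 ratio of -0.61 that passed 1.5-fold, but 1 day-10 member held 20.7% of that day's UMIs. Without the deep members the ratio was 0.08, so no direction is given for Ighm. Receptor signalling genes had 1 of 15 higher and none lower, and 5 higher without the deep members. Transcription factors had 1 of 24 higher (Klf3) and 3 lower (Tcf3, Ikzf1 and Pou2af1), whereas without the deep members 5 were higher and none lower. Inhibitory genes had 1 higher and 3 lower of 11, survival genes 2 and 2 of 9, marginal zone and B-1 genes 2 and 3 of 7, innate sensors 1 and 0 of 7, interferon genes 0 and 3 of 4 and plasma cell genes 2 and 2 of 5. Without the deep members these counts were 3 and 2 of 10 inhibitory genes, 3 and 0 of 9 survival genes, 1 and 0 of 5 marginal zone and B-1 genes, 3 and 0 of 5 innate sensors, 0 and 2 of 4 interferon genes and 0 and 0 of 3 plasma cell genes. The balance of directions in the inhibitory, survival, marginal zone and plasma cell lists thus changed without the deep members. Stress genes, which dissociation can raise, were higher in 5 of 15 and lower in 1, and in 6 and 0 of 12 without the deep members.

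Cartilage, granulocyte, erythroid, endothelial and reticular stromal genes had larger medians than any list of B-cell genes. All 10 cartilage genes were higher on day 12, with a median of 2.42, and all 10 also without the deep members, with 2.54. The rule capped 5 of these 10 genes, and 4 of the 9 erythroid genes, in every member. Granulocyte genes were lower in 8 of 9 and higher in 1 (Retnlg), with a median of -1.85, and all 9 erythroid genes were lower, with a median of -1.21. Reticular stromal genes were higher in 5 of 6 and lower in 1, with a median of 1.39, which came to 0.11 without the deep members. Endothelial genes were lower in 5 of 8 and higher in 1, with a median of -1.19. Monocyte and macrophage genes were higher in 4 of 10, oncofetal genes higher in 4 and lower in 2 of 7, and dendritic cell genes lower in 2 of 5. Without the deep members, granulocyte genes were lower in 6 and higher in 1 of 8, erythroid genes lower in 6 of 8, endothelial genes lower in 4 of 5, reticular stromal genes higher in 1 and lower in 2 of 5, and monocyte and macrophage genes higher in 4 and lower in 3 of 10. The 10 genes with the largest day-12 ratio included genes of cartilage and bone: Ibsp, a bone matrix protein, had 586 CPM on day 12, against 22.6 CPM on day 10, Ctsk, the protease of osteoclasts, had 647 CPM on day 12, against 33.9 CPM on day 10, and Chad, a cartilage protein, had 185 CPM on day 12, against 8.46 CPM on day 10. Frzb had 61 UMIs on day 12 and 0 on day 10, and was at least 14.5-fold higher with a limit of 3 UMIs per library. Dcstamp, Pth1r, B830012L14Rik, Atp6v0d2, Car3 and Cox4i2 made up the rest of the 10. In cells outside the B lineage Ibsp had 1385 CPM on day 12, against 429 CPM on day 10, and Ctsk had 880.0 and 441 CPM, so both were also higher there. Most Ctsk UMIs of the day-12 members lay in a few deep ones. Of 1287 UMIs, 326, 315 and 208 were in members of 40720, 66336 and 39823 UMIs. Whether these were doublets or cells of another type was not tested. At the low end, Slc25a21 had 17.1 CPM on day 12, against 172 CPM on day 10, Slc2a7 had 3.02 CPM on day 12, against 82.5 CPM on day 10, and Rgs13, known from germinal centre B cells, had 3.02 CPM on day 12, against 41.6 CPM on day 10. Vtcn1, Gm10736, U4, Vwf, Atp1b2, Chil3 and Cox6b2 were the other 7 genes, and Vwf is an endothelial gene and Chil3 a myeloid one. Slc2a7 was lower on day 12 in other cells too, at 6.71 against 82.6 CPM in pro-B and pre-B cells and 0.758 against 6.88 CPM outside the B lineage. Gm10736 and U4 were also lower on day 12 in both of these groups.

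**Figure D5:**
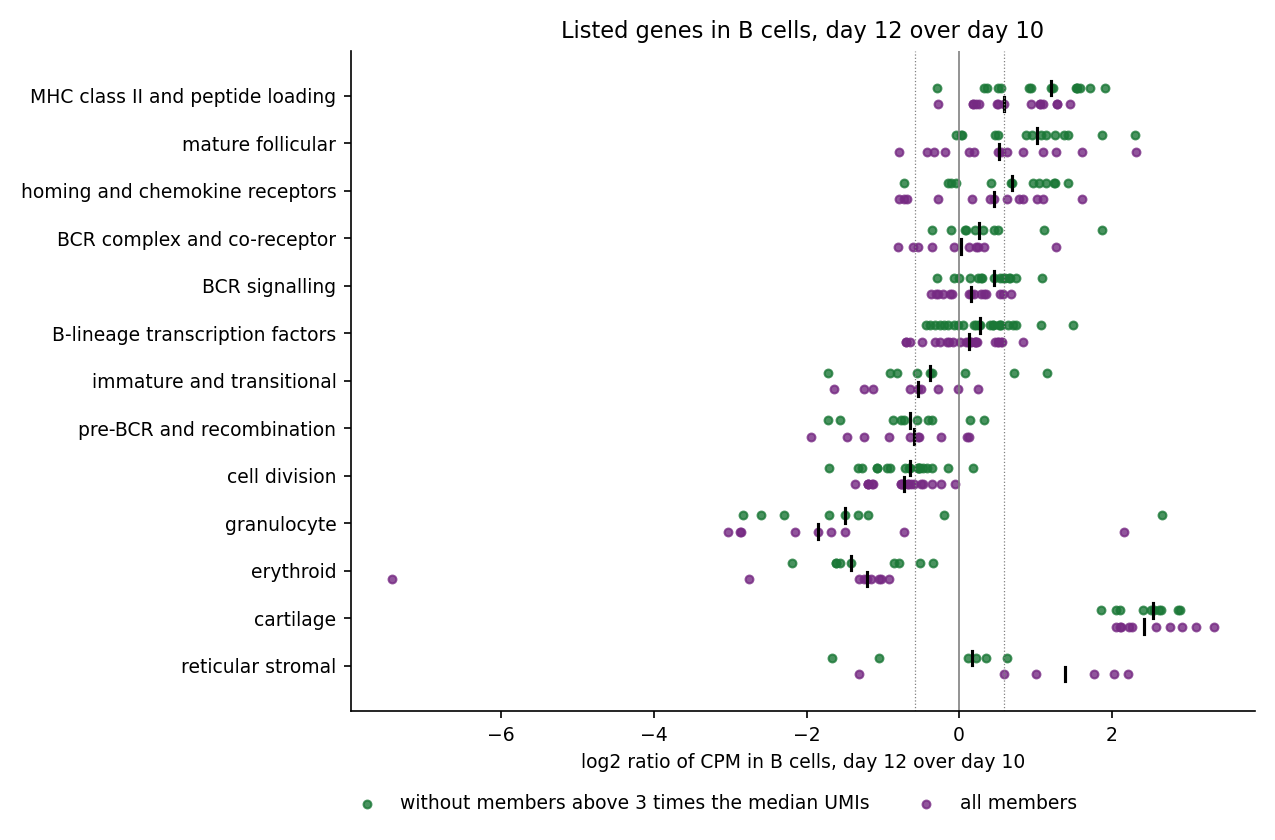
Log2 ratio of day 12 to day 10 in B cells for the genes of 13 lists (dots), for all members and without members above 3 times the median UMIs, with medians (black bars) and 1.5-fold limits (dotted lines). The class II median is 0.59 with all members and 1.21 without the deep ones, and the reticular stromal median is 1.39 and 0.11.

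Among the 1137 genes at least 2-fold above the cells outside the B lineage on both days, a set chosen after seeing the data to keep foreign RNA low, 98 (8.62%) were higher on day 12 and 242 (21.3%) lower, with a median of -0.10. Fcer2a, H2-Ab1 and H2-Eb1 were among the 12 with the largest ratio. Marchf1, a ligase that clears class II from the surface, had 127 CPM on day 12, against 51.5 CPM on day 10. Scml4 had 57.3 CPM on day 12, against 22.6 CPM on day 10. Myl1, Acta1 and Mylpf, also among the 12, encode muscle proteins and were at 37.2, 41.2 and 37.7 CPM on day 12 and 8.46, 10.6 and 14.8 CPM on day 10.

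Transcripts of antibody secretion were concentrated in a few cells of day 10. Jchain, the joining chain of secreted IgM, had 3 UMIs on day 12 and 220 on day 10, and 174 of the 220 (79.1%) lay in 1 member of 60894 UMIs. That member held 1086 UMIs of Ighm, 69 of the 77 UMIs of Ighg3 (the IgG3 heavy chain) of the day, 190 of Iglc1, 59 of Mki67 and 63 of Top2a. It held 0 UMIs of Ighd, 85 of Ms4a1 and 146 of Cd74, with 8 of Xbp1 and 5 of Prdm1, the factors of plasma cells. A member of 40051 UMIs held 36 UMIs of Jchain, 298 of Ighm and 3 of Ighd, and a member of 27395 UMIs held 8 of Jchain and 8 of Ighg3. These 3 cells gave 218 of the 220 Jchain UMIs and all 77 Ighg3 UMIs of the day.

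Members with and without a UMI of Ighd were set side by side to see how the cells vary among themselves. The split gave 201 cells with and 142 without on day 12, with median depths of 3234 and 3092 UMIs, and 85 with and 47 without on day 10, with 7839 and 5497 UMIs. Of 7748 genes, 110 (1.42%) were higher past 1.5-fold with Ighd on both days and 201 (2.59%) lower. No class II gene (12 tested), follicular gene (11), receptor signalling gene (15) or transcription factor (24) was past 1.5-fold in the same direction on both days. Members without Ighd had to hold 2 of the other 4 rule genes, H2-Aa and Ms4a1 among them, so the rule bears on these counts. On day 10 alone, 5 of the 12 class II genes were past 1.5-fold higher with Ighd and none lower, with a list median of log2 0.52, against none in either direction and a median of 0.05 on day 12. Cd74 had 1756 CPM with Ighd and 1755 without on day 12, and 912 and 669 on day 10. Ighm had 2331 with and 2584 without on day 12, and 3257 and 4734 on day 10. Granulocyte and myeloid genes differed more: 6 of 7 granulocyte genes and 5 of 9 monocyte and macrophage genes were lower in members with Ighd on both days, against 2 of 5 reticular stromal genes, while 2 of 7 tested genes of the pre-B receptor and recombination list were higher. S100a8 had 86.9 CPM with and 453 without on day 12, and 155 and 5227 on day 10, and Lyz2 had 197 and 412, and 66.0 and 767. Of the S100a8 UMIs in members without Ighd, 2 members held 212 of 343 (61.8%) on day 12 and 2 members held 2092 of 2186 (95.7%) on day 10. Without these 2 members of each day, 5 of 6 granulocyte genes and 4 of 8 monocyte and macrophage genes were lower with Ighd on both days.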

How the data were processed

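Cells of the femoral epiphysis were profiled in 4 libraries, 1 per postnatal day, with a 3′ droplet kit on a MobiNova-100 instrument, per the labels' protocols. The digestion text of the labels names bowel cancer tissue, so whether it describes the epiphysis is open. The values were UMI counts per gene and barcode for 55416 features, deposited by the authors without normalization, and every value in the files is a whole number. The submitters' processing notes name the build GRCm39. No source used here names the counting program, the annotation or the cell calling. The lowest UMI total of a barcode was 501, 500, 1043 and 747 on days 7, 8, 10 and 12.

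Members were taken by the rule in the report, and the members and the 25 gene lists were chosen with earlier results of these data known. Counts were summed per library over members and over pro-B and pre-B cells and given as CPM. Log2 ratios had 1 UMI added to each sum and used genes with at least 20 UMIs. Higher or lower meant 1.5-fold between days, 2-fold in both libraries between stages and 1.5-fold in both libraries for the Ighd split. Intervals were exact at 95% (Clopper-Pearson for shares, Poisson for CPM) and cover counting error only. A gene at 0 was given a limit of 3 UMIs per library. With 1 library per day there was no test, SD or p-value. Genes named outside the lists had the largest or smallest ratios: 10 at each end between days (at least 50 UMIs, Poisson intervals apart), 15 at each end between stages and 15 against all other cells, with V segments named apart. Light chain classes were planned from Igkc and the lambda genes, but Igkc was at 0, so the lambda counts are given instead. Counts were checked on simulated data. Python 3.11.15, numpy 2.4.6, pandas 2.3.3, scipy 1.17.1 and matplotlib 3.10.9 were used. Other rules, scalings, thresholds and depths were tried. Promoters were RefSeq sequences of GRCm38.p6, used by gene symbol only. A few listed genes are counted in their lists but not reported here by name.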

Additional observations from a re-analysis of the deposited data

Results flagged for a closer look

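Car1, an erythroid carbonic anhydrase, was past 2-fold in opposite directions on the 2 days when B cells were set against pro-B and pre-B cells, with a log2 ratio of -1.40 on day 12 and 3.46 on day 10. The difference between the days was not tested. On day 12 it rested on 3 UMIs in B cells and 26 in pro-B and pre-B cells, and the counting interval of the log2 ratio was -4.13 to -0.06. On day 10, 327 and 153 of the 491 UMIs in B cells lay in 2 members of 83037 and 47219 UMIs, which held 2 UMIs of Ighm each. Without the very deep members the log2 ratios were -0.89 and -1.27 on days 12 and 10.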

How the results depend on the processing

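Alternatives chosen after seeing the data were those without very deep members, with genes above other cells only, with 5 lambda UMIs, and, for the Ighd split, without the 2 members of each day richest in S100a8. The B-cell share on days 12 and 10 (2.11% and 1.32%) was 1.24% and 0.558% with 3 of the 5 genes, 1.37% and 0.697% with every cell thinned to 2000 UMIs, and 18.7% and 7.08% of Cd79a-positive cells. Leaving out members with 2 or more UMIs of another lineage gave 1.62% and 0.868% for myeloid, 1.38% and 0.229% for granulocyte, 1.39% and 0.658% for endothelial and 0.0123% and 0.140% for cartilage genes. The endothelial genes include Pecam1, which was common in B-lineage cells, so that setting can also remove B cells. With no UMI of 5 early genes the day-10 share was 0.967%. Genes higher and lower on day 12 (2135 and 1547) numbered 1391 and 1022 at 50 UMIs, 3916 and 4851 with no minimum, 1211 and 619 at 2-fold, and 98 and 242 among genes 2-fold above other cells. Genes higher and lower than in pro-B and pre-B cells (468 and 239) numbered 1131 and 635 at 1.5-fold, and 62 and 98 without cells with 3 or more UMIs of division genes, which left 145 B cells on day 12 and 20 on day 10. Without very deep B cells 568 were higher, 345 of them shared with all members, and 354 lower, 167 of them shared. At 5 lambda UMIs the shares were 40.5% on day 12 and 40.2% on day 10. Cd74 was found in 66.5% and 35.6% of members at 1000 UMIs and in 86.3% and 70.5% unthinned, and Mki67 in 12.0% and 15.2% at 1000 UMIs and in 45.5% unthinned on day 10. The day-12 over day-10 log2 ratio of Ighm (-0.61) was 0.000577 as a mean of per-cell values and 0.0845 without very deep members, and that of the dendritic cell gene Siglech (-1.67) was 3.22 without members with endothelial UMIs. The cause was not tested. Of the other settings for single genes and lists, 861 stayed close to the main value and 234 moved. Close meant a log2 ratio within the counting interval of the main ratio, or a list count within 1.5-fold of the main count. Whether a gene still passed the limit was not part of this label. No paired analysis was possible because each day is 1 library. The light-chain settings of 10 UMIs and of 80% were not run, since Igkc was at 0, nor were the comparisons of days without members with granulocyte or cartilage UMIs, which left under 50 members on a day. The day-12 members had a median of 3183 UMIs, so genes at low levels were found in few of them.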
